A study of Mus musculus with 12 samples.

Results

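Genes of iron uptake, storage and export were followed in leukaemic mouse cells: Tfrc, Tfr2, Slc40a1, Slc11a2, Slc25a37, Steap3, Fth1, Ftl1, Hmox1 and Aco1. They were taken by symbol from a fixed list, and all 10 were found among the 41214 genes of the count files and passed the filter on low counts. The RNA came from leukaemias of 2 KD mice, set against those of 2 KI mice, with 1 library per mouse. The labels call the KD libraries homo and the KI libraries het, and the chromatin libraries of the same series give the matching genotypes as Gfi1 KD/KD and Gfi1 KI/wt. Every mouse, KI included, was on the C57/BL6 background and carried NUP98-HOXD13, a fusion transgene that drives myelodysplasia and acute leukaemia. KI is therefore itself a leukaemia with an altered Gfi1 allele and not healthy marrow, and the labels give neither the ages of the mice nor how leukaemic cells were separated from other cells.

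Cells take up iron as transferrin bound to the transferrin receptor, reduce it in the endosome and pass it through a divalent metal transporter into the cytosol. From there it enters mitochondria for haem and iron-sulphur clusters, is stored in ferritin, or leaves through ferroportin. When iron is short, the iron regulatory proteins bind iron-responsive elements, stabilise the transferrin receptor mRNA and block translation of ferritin and ferroportin mRNA. Ferritin and ferroportin are thus controlled largely after transcription, which mRNA counts do not measure. Erythroid precursors have the highest demand for iron in marrow, macrophages that engulf old red cells recycle it, and all dividing cells import it.

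Counts assigned to genes were 11934542 and 10263454 in KD replicates 1 and 2, and 4581593 and 10869534 in KI replicates 1 and 2. Levels below are CPM, counts scaled to the library total and by TMM, a correction for differences in RNA composition, and 3 counts correspond to between 0.212 and 0.696 CPM. The predicted loci Gm10800, Gm26870 and Gm10801 took 19.4% and 21.2% of gene counts in KD, against 39.0% and 44.4% in KI. Receptors of smell, pheromones and taste, out of place in blood, together made 138 and 135 CPM in KD, against 894 and 219 CPM in KI, so KI replicate 1 stood apart. Mouse Gfi1, the targeted gene, followed the labels at 7.22 and 1.12 CPM in KD, against 36.2 and 89.0 CPM in KI. The libraries are stranded, but how HTSeq was set for strand is not given in the sources used here, so a count may hold antisense reads. No label tells of separate litters or runs, and the p-values speak only of the spread among these 4 samples.

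The iron genes did not all lie on one side. Among the genes of iron import, Tfrc, Slc25a37 and Slc11a2 lay below both KI leukaemias in both KD leukaemias, but Steap3 and Tfr2 did not. Ftl1 and, more narrowly, Steap3 lay higher in both. The remaining 5, Tfr2, Slc40a1, Fth1, Hmox1 and Aco1, overlapped between genotypes. Of all 13822 genes tested, 23.5% lay lower in both KD libraries and 14.5% higher in both, so 3 and 2 of 10 are near the background. The median log2 fold change of the 10 genes, KD over KI, was -0.35, against -0.06 over all genes tested, and its sign turned to 0.0439 with library size only, 0.0872 with limma-voom and 0.17 without KI replicate 1. In edgeR's quasi-likelihood test with Benjamini-Hochberg adjustment, 0 of the 10 were called, and 0% of all genes were called lower and 0% higher. At an unadjusted p under 0.05 edgeR had 2 of the 10 lower, against 8.34% of all genes, and 0 higher, against 1.29% of all genes. DESeq2 called 0 of the 10, with 1.09% of all genes called lower and 0.0392% higher. Taking away KI replicate 2 left both KD mice against 1 KI mouse, with log2 fold changes of -1.34 for Tfrc and -2.28 for Slc40a1.

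**Figure D1:**
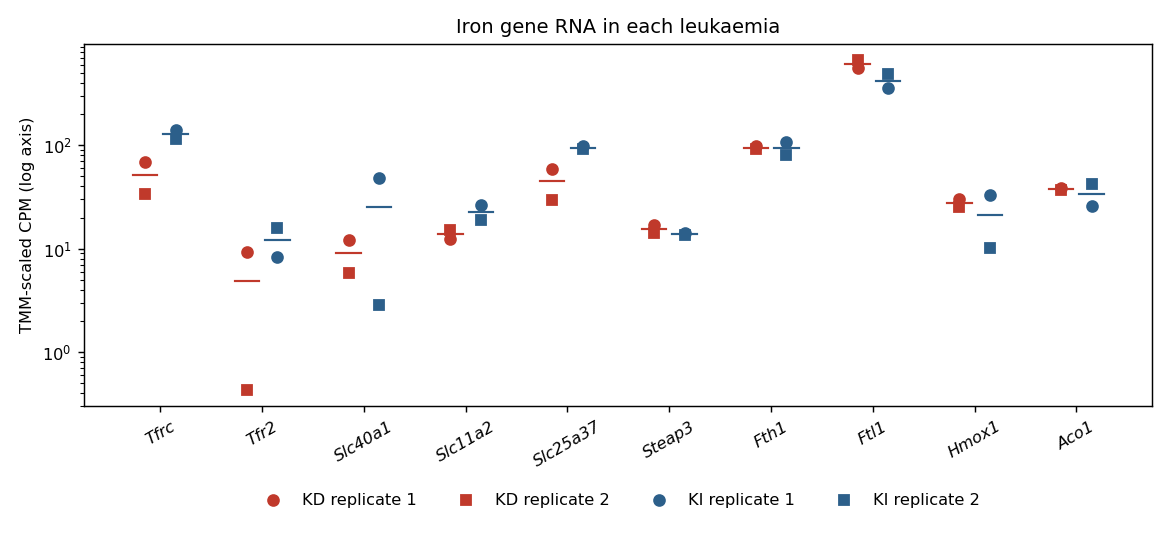
TMM-scaled CPM (log axis) of each iron gene in the KD libraries (red) and the KI libraries (blue), with circles for replicate 1, squares for replicate 2 and lines for group means (n = 2). Tfrc and Slc25a37 lay lower in both KD libraries, Ftl1 higher in both, and Slc40a1 was spread from 2.85 to 48.0 CPM within KI.

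The upstream sequences of the genes whose groups did not overlap are shown first, since a shared start-site feature would be visible there. RefSeq start-site windows (GRCm38.p6, 250 bases before to 50 after a start) were at hand for 6 of the 10 genes, Tfrc, Tfr2, Steap3, Fth1, Ftl1 and Aco1, in 13 windows. Those not matched were Slc40a1, Slc11a2, Slc25a37 and Hmox1. The 250 bases before the outermost listed start, read 5′ to 3′ on the gene's strand, are chr16:32608646-32608895 for Tfrc (plus strand), chr7:45459887-45460136 for Ftl1 (minus strand) and chr1:120271081-120271330 for Steap3 (minus strand). Capitals mark AATC, on either strand, the core of the DNA sequence that GFI1 binds. Further capitals in Steap3 mark AGATAA read on the opposite strand, a motif of GATA factors. The marked motifs do not overlap each other.
Tfrc: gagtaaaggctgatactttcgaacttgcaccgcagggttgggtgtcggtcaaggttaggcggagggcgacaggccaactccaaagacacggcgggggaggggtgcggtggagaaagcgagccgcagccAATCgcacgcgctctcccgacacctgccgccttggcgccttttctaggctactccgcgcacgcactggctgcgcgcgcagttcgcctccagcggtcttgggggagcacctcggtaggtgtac
Ftl1: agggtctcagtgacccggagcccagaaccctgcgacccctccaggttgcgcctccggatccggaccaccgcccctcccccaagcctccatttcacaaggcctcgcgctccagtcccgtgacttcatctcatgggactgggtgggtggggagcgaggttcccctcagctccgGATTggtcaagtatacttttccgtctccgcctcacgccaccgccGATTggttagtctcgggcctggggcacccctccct
Steap3: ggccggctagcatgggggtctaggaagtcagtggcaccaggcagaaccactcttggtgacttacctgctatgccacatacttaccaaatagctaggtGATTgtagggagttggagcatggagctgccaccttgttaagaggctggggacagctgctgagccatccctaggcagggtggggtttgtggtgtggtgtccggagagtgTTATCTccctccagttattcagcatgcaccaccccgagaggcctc
The GFI1 core began 122 bases before the start in Tfrc (position -122), at -79 and -35 in Ftl1, and at -153 in Steap3.

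Searched on both strands over whole windows, the GFI1 core AATC was found in 5 of the 6 iron genes with windows, against 76.4% of the 27025 genes with a window. GATA factor motifs, searched as AGATAA with either A or T as the first letter and either A or G as the last, were found in 3 of the 6, Tfr2, Steap3 and Fth1, against 33.04% of genes. ACGTG, the core of the hypoxia response element, was found in 2 of the 6, Tfrc and Tfr2, against 21.8%. TGACNNNGC, the core of the antioxidant response element, was found in 0 of the 6, against 14.0%. Letters of the bulge and loop of an iron-responsive element were searched on the sense strand of the transcribed bases. They were found in Tfr2 alone of the 6, against 1.82% of genes. The bases between bulge and loop could be any letters, and their pairing into a stem was not tested, so this search does not show an element in Tfr2. That search covered 50 bases after each listed start, and the rest of the transcripts, where the known elements of Tfrc, Fth1 and Ftl1 lie, was not analysed here. A gene counted if any of its windows held a match. The 6 iron genes held 13 windows, against 32851 windows for the 27025 genes, so an iron gene had more chances. The motif matches are letters in a window and not binding sites, and none of the shares is a result about the iron genes.

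Tfrc encodes transferrin receptor 1, which carries iron-loaded transferrin into dividing cells and erythroid precursors (ENSMUSG00000022797, GRCm38 chromosome 16, 32608896 to 32632794). It lay at 68.6 and 33.4 CPM in the KD libraries, a mean of 51.0 ± 24.9 (SD, n = 2), against 141 and 114 CPM in the KI libraries, a mean of 128 ± 18.7. The counts were 970 and 387 in KD, and 607 and 964 in KI. KD replicate 2 was the lowest of the 4 and the groups did not overlap. The log2 fold change, KD over KI, was -1.32 ± 0.41 (SE), a KI level 2.50 times the KD level, and edgeR's adjusted p was 0.518. Leaving out KD replicate 1 gave -1.82, and leaving out KD replicate 2 gave -0.81. Leaving out KI replicate 2 gave -1.34. Over the alternatives that kept all 4 libraries, the adjusted p ran from 0.181 with the replicate block to 0.883 with at least 5 CPM in 2 libraries, both in edgeR. The groups stayed apart under each of the 7 other scalings and filters.

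Slc25a37, mitoferrin 1, imports iron into the mitochondria of developing red cells, where haem is completed (chromosome 14, 69241848 to 69285544). Its pattern was the closest to Tfrc among the 10 genes. It lay at 59.6 and 29.9 CPM in KD, a mean of 44.7 ± 21.0 (SD, n = 2), against 97.6 and 91.2 CPM in KI, a mean of 94.4 ± 4.53. Again KD replicate 2 was lowest, and both KI libraries lay above both KD libraries in each of the 7 other scalings and filters. The log2 fold change was -1.08 ± 0.40 (SE, adjusted p = 0.518 in edgeR), with -1.55 without KD replicate 1 and -0.59 without KD replicate 2.

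Slc11a2 encodes DMT1, the divalent metal transporter that moves iron out of the endosome (chromosome 15, 100387898 to 100424209). It lay at 12.4 and 15.2 CPM in KD, a mean of 13.8 ± 2.00 (SD, n = 2), against 26.7 and 18.9 CPM in KI, a mean of 22.8 ± 5.52. Here KD replicate 1 was the lowest, unlike in Tfrc and Slc25a37. The log2 fold change was -0.72 ± 0.37 (SE, adjusted p = 0.595 in edgeR), and -0.32 without KI replicate 1. With library size as the only scaling its groups overlapped.

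Steap3, the endosomal ferrireductase that reduces iron before DMT1 carries it (chromosome 1, 120226414 to 120271081), did not follow Tfrc, Slc25a37 and Slc11a2. It lay at 16.9 and 14.2 CPM in KD, against 14.1 and 13.5 CPM in KI. The gap between the groups was smaller than the spread between the KD libraries, and the groups overlapped in 4 of the 7 other scalings and filters. Its log2 fold change was 0.17 ± 0.36 (SE, adjusted p = 0.972 in edgeR).

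Tfr2, transferrin receptor 2, senses iron-loaded transferrin in hepatocytes and in erythroid cells, where it associates with the erythropoietin receptor (chromosome 5, 137569822 to 137588081). It lay at 9.27 and 0.432 CPM in KD, the second value resting on 5 counts, against 8.35 and 15.9 CPM in KI. KD replicate 2 stood far below the other 3 libraries, and KD replicate 1 lay between the KI libraries. The log2 fold change of -1.32 ± 1.22 (SE, adjusted p = 0.855 in edgeR) became -0.36 without KD replicate 2 and -4.70 without KD replicate 1.

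**Figure D2:**
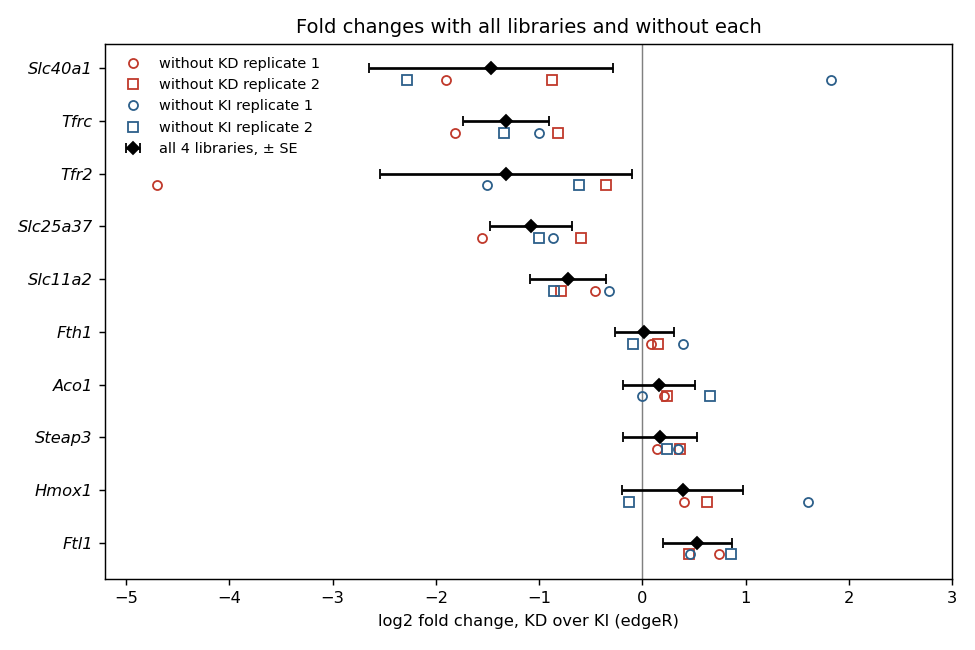
Log2 fold change, KD over KI, of each iron gene by edgeR with all 4 libraries (black diamonds, bars are SE) and without each library in turn (open symbols). Tfrc, Slc25a37 and Slc11a2 stayed below 0 in every fit shown, while Slc40a1 was at -2.28 when KI replicate 2 was left out and at 1.83 when KI replicate 1 was.

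The ferritin subunits did not behave alike. Ftl1, the ferritin light chain, which favours mineral formation inside the storage shell (chromosome 7, 45457944 to 45459886), lay at 552 and 660 CPM in KD, a mean of 606 ± 76.4 (SD, n = 2), against 355 and 483 CPM in KI, a mean of 419 ± 90.4. Both KD libraries lay above both KI libraries in each of the 7 other scalings and filters as well. The log2 fold change was 0.53 ± 0.34 (SE, adjusted p = 0.695 in edgeR), from 0.45 to 0.86 without each library in turn. Fth1, the heavy chain with the ferroxidase activity (chromosome 19, 9980600 to 9985111), lay at 98.0 and 91.4 CPM in KD, against 108 and 79.7 CPM in KI. The KD libraries lay between the KI libraries, with a log2 fold change of 0.02 ± 0.29 (SE, adjusted p = 1 in edgeR). Its sign turned with the setting, to -0.09 with upper quartile scaling. Both ferritin genes have near-identical processed copies in the genome, and reads aligning to several places were assigned to none of them, which leaves both levels uncertain. The 13 other loci with ferritin names summed to 72 and 72 raw counts in KD, against 25 and 37 raw counts in KI. Most came from Ftl1-ps1, with 58 and 63 counts in KD, against 18 and 30 in KI. These counts are not scaled for depth, and KI replicate 1 had 4581593 gene counts, against 11934542 in KD replicate 1. They therefore show no difference between genotypes by themselves.

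Slc40a1, ferroportin, is the iron exporter and is abundant in iron-recycling macrophages (chromosome 1, 45908070 to 45926532). It lay at 12.2 and 5.87 CPM in KD, against 48.0 and 2.85 CPM in KI. The KI libraries were both the highest and the lowest of the 4. The log2 fold change was -1.47 ± 1.18 (SE, adjusted p = 0.807 in edgeR). It turned to 1.83 without KI replicate 1 and became -2.28 without KI replicate 2, so the direction rested on which KI mouse was used. Limma-voom gave 0.14. Hmox1, haem oxygenase 1, releases iron from haem (chromosome 8, 75093618 to 75100593). It was the member nearest to Slc40a1 in pattern, but not close, at a distance of 2.01 against 0.284 between Tfrc and Slc25a37 (measure given below). The member nearest to Hmox1 was Fth1, at 1.04. Hmox1 lay at 30.1 and 25.3 CPM in KD, against 32.7 and 10.1 CPM in KI. Its log2 fold change was 0.39 ± 0.58 (SE, adjusted p = 0.952 in edgeR), 1.60 without KI replicate 1 and -0.13 without KI replicate 2.

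Markers of iron-recycling macrophages were uneven between the KI libraries. Of 16 tested genes, 11 were higher in KI replicate 1 and 5 higher in KI replicate 2, Vcam1, Axl, C1qa, C1qb and C1qc. The share of all genes higher in KI replicate 1 is not given. Of the list's 18 genes, 2 had no count in KD replicate 1 and 2 had none in KI replicate 2, and the list summed to 778 and 606 CPM in KD, against 688 and 208 CPM in KI. Siglec1, a sialic acid receptor of macrophages, lay at 1.77 and 1.30 CPM in KD, against 16.2 and 3.92 CPM in KI. Csf1r, the receptor of macrophage colony-stimulating factor, which monocytes share, lay at 505 and 290 CPM in KD, against 254 and 98.8 CPM in KI. Spic, the transcription factor of red pulp macrophages, was at 1.13 and 0.777 CPM in KD, against 4.41 and 1.07 CPM in KI, and Marco and Timd4 had too few counts to be tested. Axl, a receptor for dying cells, lay at 2.19 and 3.89 CPM in KD, against 7.19 and 13.9 CPM in KI. The median macrophage marker lay at 9.6 and 3.80 CPM in KI replicates 1 and 2. The median lymphoid and stromal marker was also higher in KI replicate 1, at 5.57 against 1.90 CPM, so the unevenness was not particular to macrophage markers. The median proliferation marker was lower in KI replicate 1, at 75.6 against 135 CPM. The receptors of smell, pheromones and taste were also highest in KI replicate 1. The part of macrophages, or of whatever raised these receptors, in the Slc40a1 and Hmox1 values was not tested.

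Aco1 encodes the cytosolic aconitase that turns into iron regulatory protein 1 when it loses its iron-sulphur cluster (chromosome 4, 40143265 to 40199009). It lay at 38.8 and 37.1 CPM in KD, against 25.7 and 41.9 CPM in KI. The KD libraries were nearly equal and lay between the KI libraries, with a log2 fold change of 0.16 ± 0.35 (SE, adjusted p = 0.972 in edgeR) that was -0.0044 without KI replicate 1.

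Ratios of counts within a library do not depend on scaling between libraries, and 9 were computed. Counts of Tfrc per count of Fth1 were 0.700 and 0.366 in KD, against 1.305 and 1.435 in KI. The KD ratio was lower by 1.43 on the log2 scale, and the groups did not overlap (exact two-sided permutation p = 0.333, the smallest that 2 against 2 allows, adjusted p = 0.749 over 9 ratios). Counts of Steap3 per count of Tfrc were 0.246 and 0.424 in KD, against 0.1005 and 0.1183 in KI. Counts of Aco1 per count of Tfrc were 0.565 and 1.11 in KD, against 0.183 and 0.366 in KI. Slc25a37 stayed close to Tfrc in all 4 libraries, at 0.868 and 0.894 counts per Tfrc count in KD, against 0.694 and 0.798 in KI. These 4 ratios separated the groups, each at an exact permutation p of 0.333. All 4 hold Tfrc, so they are not independent of each other. The other 5 did not separate the groups, with exact permutation p-values from 0.667 to 1. Ftl1 per Fth1, for example, was 5.63 and 7.22 in KD, against 3.30 and 6.06 in KI.

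**Figure D3:**
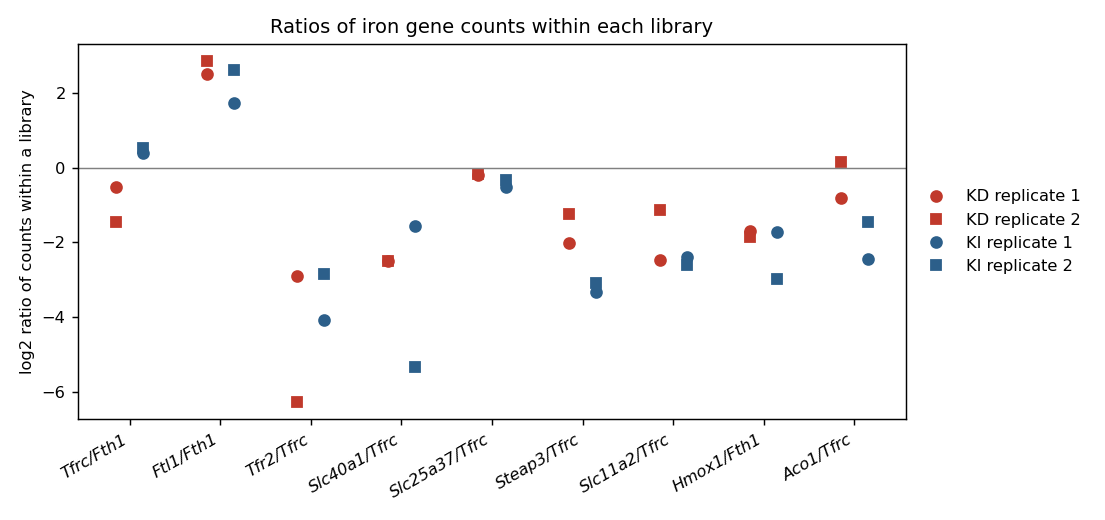
Log2 ratio of the counts of 2 iron genes within each library, KD in red and KI in blue, circles for replicate 1 and squares for replicate 2. Tfrc/Fth1 lay lower and Slc25a37/Tfrc, Steap3/Tfrc and Aco1/Tfrc lay higher in both KD libraries. The Slc40a1/Tfrc ratio was spread widely within KI.

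Erythroid markers also lay lower in KD, as did the late neutrophil markers described below. Of 28 tested erythroid genes, 26 had both KD libraries below both KI libraries, against 23.5% of all genes, and 27 had a negative fold change. The median erythroid marker lay at 2.90 and 0.259 CPM in KD, against 19.1 and 18.2 CPM in KI. The list summed to 268 and 155 CPM in KD, against 1092 and 1087 CPM in KI, and 4 of its genes had no count in KD replicate 2. In that library 16 of the 28 genes had 3 counts or fewer. Its erythroid median therefore lay at the 3-count floor of 0.259 CPM, and values drawn from it are uncertain. Ermap, a red cell membrane protein, lay at 7.15 and 1.04 CPM in KD, against 46.2 and 54.1 CPM in KI. Nfe2, a transcription factor shared with megakaryocytes, had a log2 fold change of 0.01. Values relative to the KI mean were taken on log2 CPM with a prior count of 3. Tfrc lay at -0.88 and -1.91 in KD replicates 1 and 2 and the median erythroid marker at -2.49 and -4.92. KD replicate 2 was thus the lower of the pair for both. The median late neutrophil marker had the same order, at -2.43 and -4.06, so the order was not particular to erythroid markers. Slc11a2 had the opposite order, at -0.84 and -0.55. In bulk RNA, fewer erythroid cells and less RNA per cell cannot be told apart, and the part of erythroid cells in the Tfrc and Slc25a37 values was not tested.

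**Figure D4:**
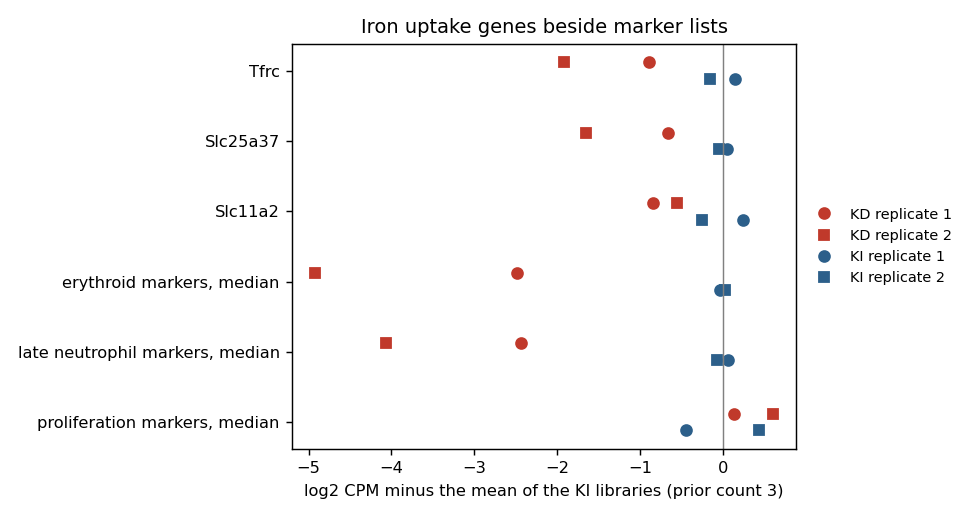
Log2 CPM (prior count 3) minus the mean of the KI libraries, for Tfrc, Slc25a37 and Slc11a2 and for the median gene of 3 marker lists, KD in red above KI in blue, circles for replicate 1 and squares for replicate 2. KD replicate 2 was the lowest library for Tfrc, Slc25a37, the erythroid median and the late neutrophil median, and KD replicate 1 was the lowest for Slc11a2.

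Dividing cells of every lineage also use Tfrc. Of 24 tested proliferation markers, 19 overlapped between genotypes, 5 lay higher in both KD libraries, against 14.5% of all genes, and 0 lower, with a median log2 fold change of 0.33. The median marker lay at 99.7 and 160 CPM in KD, against 75.6 and 135 CPM in KI. The genes named next are among the 5. Mki67, a nuclear protein of cycling cells, lay at 1227 and 1184 CPM in KD, against 703 and 853 CPM in KI. Bub1, a mitotic checkpoint kinase, lay at 56.0 and 61.2 CPM in KD, against 34.1 and 36.9 CPM in KI, and Ccna2, cyclin A2, at 165 and 179 CPM, against 97.2 and 146 CPM in KI. None of these 3 passed edgeR's adjusted threshold, and the part of proliferation in the Tfrc values was not tested.

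Partners of Slc25a37 in mitochondria were read next. Of 22 tested genes of mitochondrial iron and iron-sulphur clusters, 15 had a negative fold change, 4 lay lower in both KD libraries, against 23.5% of all genes, and 0 higher, with a median of -0.27, so the count does not exceed the background. Abcb10, the mitochondrial transporter that binds and stabilises mitoferrin 1, lay at 33.2 and 32.9 CPM in KD, against 48.2 and 86.4 CPM in KI (log2 -1.03 ± 0.37, SE). Fam210b, a mitochondrial protein of erythroid iron import, lay at 4.10 and 6.05 CPM in KD, against 14.38 and 11.98 CPM in KI (log2 -1.37). Slc25a28, mitoferrin 2, the form found in many tissues, was named after its values were seen and overlapped at 25.2 and 31.4 CPM in KD, against 20.9 and 28.1 CPM in KI. Iba57, an iron-sulphur assembly factor, lay at 6.65 and 10.2 CPM in KD, against 12.1 and 11.1 CPM in KI.

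Around the transferrin receptor, 15 trafficking genes were tested, 3 lay lower and 3 higher in both KD libraries, against 23.5% and 14.5% of all genes, and the median was 0.04. March8, a ubiquitin ligase that sends the transferrin receptor to lysosomes, lay at 15.1 and 23.4 CPM in KD, against 34.3 and 43.8 CPM in KI (log2 -1.02). Cltc, the clathrin heavy chain, lay at 488 and 428 CPM in KD, against 344 and 322 CPM in KI. Tbc1d24 lay at 22.0 and 30.6 CPM in KD, against 39.2 and 36.3 CPM in KI.

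Among 14 genes of iron sensing and ferritin turnover, 4 lay higher and 0 lower in both KD libraries, against 14.5% and 23.5% of all genes, and the median was 0.22. Pcbp1 and Pcbp2, poly(C)-binding proteins that deliver iron to ferritin, were among the 4, with Herc2 and Tfeb. Pcbp3 overlapped. Pcbp2 lay at 140 and 124 CPM in KD, against 89.5 and 81.6 CPM in KI (log2 0.63), and Pcbp1 at 78.0 and 66.6 CPM in KD, against 47.5 and 52.2 CPM in KI. Ireb2, iron regulatory protein 2, overlapped at 83.1 and 44.2 CPM in KD, against 54.7 and 30.4 CPM in KI. Ncoa4, the receptor that delivers ferritin to autophagy, also overlapped and was named after its values were seen, with 43.0 and 82.2 CPM in KD, against 44.5 and 130 CPM in KI.

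**Figure D5:**
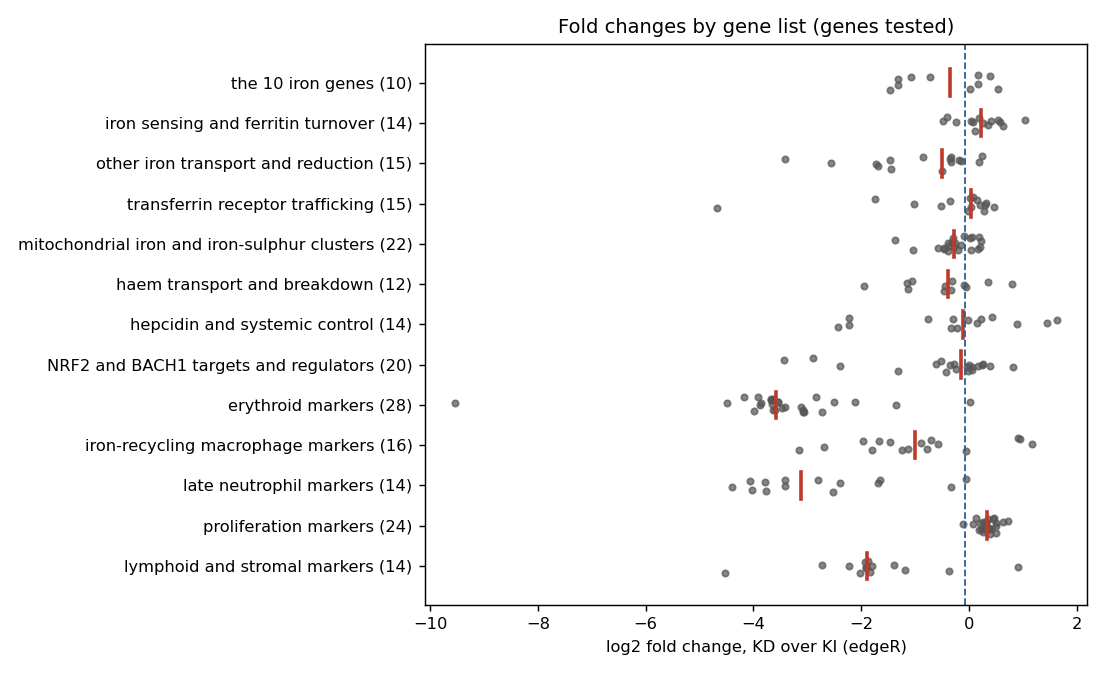
Log2 fold change, KD over KI (edgeR), of each tested gene (grey points) by list, with list medians (red bars), the median of all tested genes (dashed line) and the number of genes in brackets. The erythroid median of -3.57 and the late neutrophil median of -3.11 lay far from the -0.35 of the 10 iron genes.

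Of 15 other tested genes of iron transport and reduction, 8 lay lower in both KD libraries, against 23.5% of all genes, and 0 higher, against 14.5%, with a median of -0.49. Of the 8, Steap2, Cybrd1, Slc22a17 and Scara5 rest on few counts, 5 to 21 in each KD library. Ltf, the iron-binding lactoferrin of secondary granules, lay at 283 and 75.8 CPM in KD, against 2665 and 1155 CPM in KI, and Lcn2, which binds bacterial iron chelators, at 204 and 171 CPM in KD, against 550 and 653 CPM in KI. Both also belong to the late neutrophil list, of which 12 of 14 tested genes lay lower in both KD libraries, among them Ngp (298 and 116 CPM in KD, against 2127 and 3550 CPM in KI), Camp and Olfm4. Slc39a14, a transporter of unbound iron, overlapped at 5.31 and 4.49 CPM in KD, against 13.7 and 4.15 CPM in KI. Trf, transferrin itself, was named after its values were seen and lay at 9.41 and 10.0 CPM in KD, against 12.3 and 12.6 CPM in KI.

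Of 12 tested genes of haem transport and breakdown, 3 lay lower in both KD libraries, against 23.5% of all genes, and 0 higher. Blvrb, biliverdin reductase B of red cells, lay at 12.4 and 9.07 CPM in KD, against 19.7 and 27.8 CPM in KI (log2 -1.14), and Abcc5, an ABC transporter linked to haem export in worms, at 88.0 and 63.8 CPM in KD, against 112 and 205 CPM in KI. Lrp1, the receptor for haem-haemopexin complexes, was uneven within KD at 1079 and 406 CPM, against 476 and 382 CPM in KI. Of 20 tested NRF2 and BACH1 targets and regulators, the class to which Hmox1 and the ferritin genes belong, 6 lay lower and 3 higher in both KD libraries, against 23.5% and 14.5% of all genes. Prdx1, a peroxiredoxin, lay at 122 and 155 CPM in KD, against 64.2 and 92.8 CPM in KI. Slc7a11, the cystine transporter, lay the other way at 2.05 and 1.81 CPM in KD, against 22.5 and 6.53 CPM in KI, and Mafk, a small MAF partner, at 25.4 and 24.1 CPM, against 30.9 and 44.6 CPM in KI.

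Hamp and Hamp2, genes of the systemic iron hormone hepcidin that blocks ferroportin, had 0 counts in all 4 libraries, which allows up to 0.212 and 0.259 CPM in KD, against 0.696 and 0.356 CPM in KI. Of 14 tested genes of hepcidin control, 3 lay lower and 3 higher in both KD libraries, against 23.5% and 14.5% of all genes. Hfe, the haemochromatosis protein that binds transferrin receptor 1, lay at 32.3 and 20.5 CPM in KD, against 16.0 and 12.3 CPM in KI (log2 0.90). Smad7, an inhibitor of bone morphogenetic protein signalling, lay at 18.3 and 13.0 CPM in KD, against 26.4 and 26.7 CPM in KI. Bmpr2, a receptor of that pathway, was uneven within both genotypes, at 118.1 and 29.98 CPM in KD, against 45.0 and 9.85 CPM in KI. Across the 7 lists of other iron genes, edgeR called 0 of 112 genes after adjustment over all genes tested. At an unadjusted p under 0.05, 13 of the 112 were lower, 11.6% against 8.34% of all genes, and 1 was higher, 0.893% against 1.29%.

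Of the 14 tested lymphoid and stromal markers, 7 lay lower and 1 higher in both KD libraries, against 23.5% and 14.5% of all genes. Cd3e of T cells lay at 1.34 and 0.518 CPM in KD, against 6.26 and 37.3 CPM in KI. Cd79b of B cells lay at 13.1 and 16.9 CPM in KD, against 10.4 and 28.1 CPM in KI, and Pecam1, which endothelium shares with leukocytes, at 54.2 and 80.8 CPM, against 35.3 and 36.8 CPM in KI. The list summed to 80.6 and 112 CPM in KD, against 129 and 128 CPM in KI.

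The genes most like Tfrc over the 4 libraries were Nefh, Pilra and Antxr2. Likeness was the smallest Euclidean distance between log2 CPM profiles centred on their means, among 9602 named genes of at least 5 CPM on average. The distances were 0.132, 0.208 and 0.223, and that to Slc25a37 was 0.284. Nefh, a neurofilament gene, lay at 4.17 and 1.73 CPM in KD, against 9.04 and 6.53 CPM in KI. Pilra, an immunoglobulin-like receptor of myeloid cells, lay at 30.9 and 16.1 CPM in KD, against 58.0 and 46.3 CPM in KI. Antxr2, an anthrax toxin receptor, lay at 28.5 and 12.3 CPM in KD, against 48.2 and 39.6 CPM in KI. With 4 libraries, many genes can share such a profile.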

How the data were processed

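Leukaemic cells of 2 KD and 2 KI mice gave TruSeq Stranded mRNA libraries, per the labels' protocols. The values are raw counts per Ensembl gene deposited by the authors, and the submitters' processing notes list the tools HTSeq, DESeq, SAMtools and TopHat2 2.0.10, and build GRCm38. Annotation release and strand setting: not given in the sources used here. Summary entries that name no gene held 93.2% to 97.9% of each total and were left out. Of uniquely aligned reads, 67.4% and 63.2% fell in no feature in KD replicates 1 and 2. In KI replicates 1 and 2 it was 88.3% and 68.3%, so KI replicate 1 stood apart here too. Chromatin tables hold 1616 columns that name no library and were not used.

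In R 4.3.3, 13822 genes passed edgeR 4.0.16 filterByExpr, were scaled by TMM and tested with glmQLFit and glmQLFTest, with 1 term for genotype and a Benjamini-Hochberg threshold of 0.05. CPM are TMM-scaled, SEs come from the fit and hold the spread between mice, and floors of 3 counts cover counting error only. Symbols matched 40254 of 41214 IDs. Tf and Fam132b were read as Trf and Erfe, and Ahsp was not matched. Coordinates are RefSeq gene bounds on GRCm38.p6. Alternatives were 3 other scalings, 2 filters, DESeq2 1.42.0, limma-voom (limma 3.58.1), a replicate block and leaving out each library. Leaving out the 3 highest loci was chosen after seeing the data, as was recounting the groups that do not overlap without each library. Members and lists were chosen with earlier results of these data known. The text names all 10 genes and, per list, the 3 lowest p-values among genes of at least 5 CPM on average, except 2 erythroid genes not reported here, with Spic, Marco, Timd4, Nfe2, Hamp and Hamp2 added after their values were seen.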

Additional observations from a re-analysis of the deposited data

How the results depend on the processing

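Tfrc, Slc25a37, Slc11a2 and Tfr2 kept a negative and Ftl1 and Steap3 a positive fold change under all 14 alternatives. Of the 10 genes, 0 were called under any alternative that kept all 4 libraries. Across all genes, edgeR with all 4 libraries called 0 lower and 0 higher, against 140 lower and 29 higher with no low-count filter, and 139 lower and 5 higher with DESeq2. Without each library in turn edgeR called 9 to 3846 lower and 2 to 284 higher, with the filter rerun and the spread of the genotype left with 1 mouse taken from the other. The count of iron genes higher in both KD libraries, 2, was 1 with RLE scaling, 1 with upper quartile scaling, 1 with at least 5 CPM in 2 libraries and 1 with library size only after leaving out the 3 highest loci. It was 4 with library size only and 4 with no low-count filter. The count lower in both, 3, was 2 with library size only, 4 with upper quartile scaling and 4 with at least 5 CPM in 2 libraries. Without each library the counts were 2 to 5 higher and 3 to 6 lower. There 1 library is set against 2, which separate more easily, and no share over all genes is given, so these counts cannot be read against a background. Library size only moved the median of all genes from -0.06 to 0.37, and relative to those medians Tfrc lay at -1.26 and -1.27. The median of the 10 genes, -0.35, was 0.0439 with library size only, 0.0872 with limma-voom, and -0.38 to 0.17 without each library.

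Signs turned for Slc40a1, at 0.14 with limma-voom and -2.281 to 1.83 without each library. Signs also turned without each library for Hmox1 (-0.13 to 1.6014) and Aco1 (-0.0044 to 0.6572). Fth1 turned to -0.0914 with upper quartile scaling, -0.0865 with at least 5 CPM in 2 libraries and -0.0343 with library size only after leaving out the 3 highest loci, and ran from -0.088 to 0.388 without each library. Without each library the log2 ratios ran from -2.813 to 0.57 for Tfr2/Tfrc, -0.95 to 2.83 for Slc40a1/Tfrc and -0.0551 to 1.2063 for Hmox1/Fth1. The cause was not tested. Replicate numbers share only a number between genotypes. Same-numbered deviations had a correlation of 0.249 across genes, which are not independent replicates, and with the replicate block 7 genes were called lower, 0 higher and 0 of the 10. The Tfr2 value of KD replicate 2 rests on 5 of 10263454 gene counts, against 36 of 4581593 in KI replicate 1.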
